A study of Homo sapiens with 10 samples.

Results

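The genes described here are 40 interferon-stimulated genes, taken by symbol from the 28281 genes counted in each of the deposited tables. HLA genes were left out because their counts depend on alternate haplotypes. They were measured by poly(A) RNA sequencing in A549 and H1944, established human lung adenocarcinoma cell lines, each as wild type (WT) and as an APEX1 knockout (KO). The gene codes for APE1, an endonuclease of base excision repair that also acts as a redox factor, and the title of the study names its effect on urea cycle genes and DNA G-quadruplexes. For A549, grown in DMEM, there were 3 libraries of each genotype, and for H1944, grown in RPMI1640 with sodium pyruvate, 2 of each. Both media held fetal bovine serum, penicillin and streptomycin, and the labels name no interferon, virus or other agent. The labels do not say whether a KO group is 1 clone or several, nor whether its libraries stem from separate cultures, so p-values measure only how these libraries vary, which may be technical variation. The columns of the A549 KO libraries bear only the numbers 65, 16 and 66, with no genotype, and were assigned to KO as the labels leave no other A549 group.

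Interferon-stimulated genes are switched on when type I or type III interferons bind their receptors on the cell surface. The receptors' kinases JAK1 and TYK2 then activate transcription factors, among them STAT2 with IRF9, that bind interferon-response elements in promoters. The products block viruses at entry, replication, translation and exit, and in lung epithelium they form the first response to respiratory viruses. Cells can also make interferon themselves after cytosolic RNA or DNA is sensed, and some tumour lines keep part of the program on without added interferon.

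The stretches below show what many of these promoters share, the letters GAAA, any 2 bases and GAAA on either strand, the core of an interferon-response element. One gene was chosen for each of the 9 role groups, namely the gene with the largest H1944 fold change among those with a match upstream of a start. Capitals mark the match, flanked by up to 8 bases (fewer for OAS3, where the stretch stops at the start), and where matches overlap they run together. OAS3 and IFI6 each have 1 more match farther upstream, and MX1 has 1 after another start, which are not printed. Each is written 5′ to 3′ on the strand of its gene, from RefSeq (GRCh38.p14).
IFIT1: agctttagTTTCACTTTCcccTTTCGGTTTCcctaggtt
OAS3: ccgggcggGAAAACGAAAcc
MX1: tcactctgTTTCTCTTTCcgtgaata
ISG15: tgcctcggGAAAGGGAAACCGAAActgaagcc
DDX60: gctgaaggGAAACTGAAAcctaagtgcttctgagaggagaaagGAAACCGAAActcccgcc
RSAD2: gtttcaacTTTCAGTTTCacatgtgg
BST2: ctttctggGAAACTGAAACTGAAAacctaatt
PARP9: gcgcaaagTTTCAGTTTCgcttccct
IFI6: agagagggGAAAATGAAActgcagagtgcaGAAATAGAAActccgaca
They lie at chr10:89392499-89392537 (IFIT1, plus strand), chr12:112938454-112938473 (OAS3, plus strand), chr21:41431846-41431871 (MX1, plus strand), chr1:1013376-1013407 (ISG15, plus strand), chr4:168318788-168318848 (DDX60, minus strand), chr2:6877624-6877649 (RSAD2, plus strand), chr19:17405737-17405768 (BST2, minus strand), chr3:122564324-122564349 (PARP9, minus strand) and chr1:27672268-27672315 (IFI6, minus strand), each before a RefSeq transcription start of its gene. For MX1, DDX60, RSAD2 and PARP9 the stretch lies inside the annotated span of the gene, before an inner start. Of the 40 genes, 33 had a window from 250 bases before to 50 bases after a RefSeq start. The motif stood in a window of 26 of these 33 (78.8%), against 4.38% of 27305 genes with a window. Counted by window it stood in 31 of 45 (68.9%), against 3.57% of 35116 windows. The matches of PARP9 and DTX3L are the same site, counted for both genes. A match is a description of the letters and does not show that a factor binds there.

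**Figure D1:**
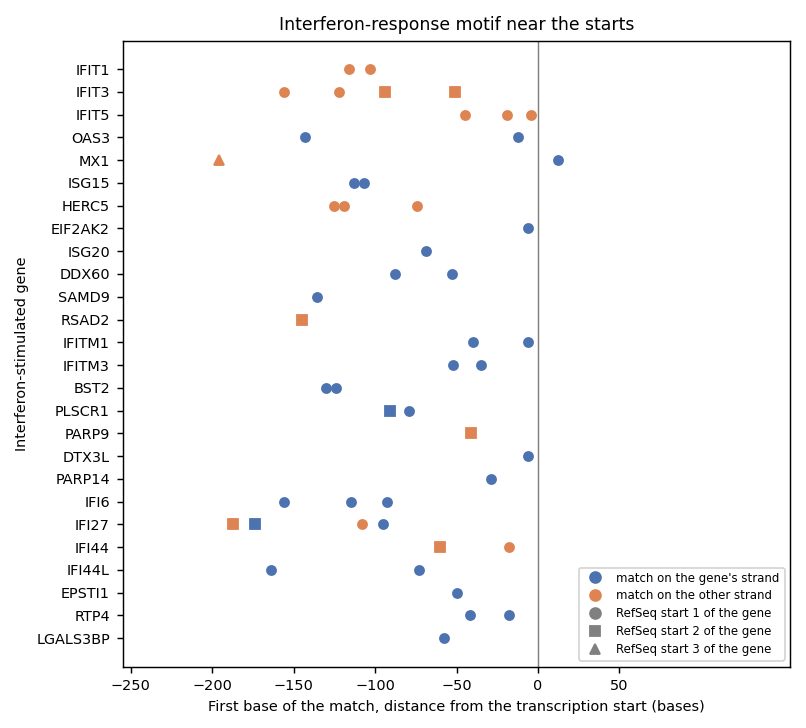
Position of each match to the interferon-response motif (first base, in bases from the transcription start on the x axis) in the 26 genes with a match. Colour gives the strand and marker shape the RefSeq start. Each of the 26 genes has a match that begins upstream of a start, and MX1 also has one just after a start.

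A second motif was counted because the study's title names G-quadruplexes: 4 runs of GGG, with 1 to 7 bases between runs, on either strand. It stood in windows of 8 of the 33 genes (24.2%), against 27.8% of all genes with a window, and in 9 of 45 windows, which is 20% against 24.9% of all windows. Among the 8 genes with the G-run motif the median H1944 log2 fold change was 1.55, and among the 25 without it 1.52. For the interferon-response motif the medians were 1.76 in the 26 genes with a match and 1.52 in the 7 without. The ranges of fold changes with and without either motif overlapped.

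Total counts ran from 18314224 to 30219850 per library, and 3 counts, the upper limit that a count of 0 allows, corresponded to 0.0993 to 0.164 CPM before TMM scaling. All other CPM here are TMM-scaled counts relative to library size, on 1 scale for all 10 libraries. APEX1 measured 239.8 and 239 CPM in H1944 WT and 85.5 and 85.8 CPM in H1944 KO (edgeR adjusted p = 6.4e-19), and 165 to 264 CPM in A549 WT against 58.6 to 109 CPM in A549 KO (edgeR adjusted p = 0.521). Transcripts of the gene were thus still counted in each KO library, and mRNA counts do not show whether protein was made. In A549 the share of ribosomal RNA genes parted the libraries across genotype, at 0.284% for WT 1, 0.337% for KO 65 and 6.45% to 14.2% for the other 4. Keratins 8 and 18 were abundant in all 10 libraries, as in epithelial cells. KRT7 and KRT19 averaged 5.69 and 1.35 CPM in H1944 WT, against 2799 and 135 CPM in A549 WT. EPCAM and CDH1 averaged 68.9 and 207 CPM in H1944 WT. NKX2-1, a lung lineage factor, was at or near 0 in both lines. Of the leukocyte markers, CD3E and MS4A1 had 0 counts in every library and PTPRC had 5 and 9 counts in WT and 0 and 0 in KO in H1944. Of 6 epithelial markers in H1944, 2 rose in KO, KRT8 and KRT18 (log2 fold changes 0.81 and 0.98, edgeR adjusted p = 4.4e-17 and 2.9e-18), KRT7 was not called, and EPCAM, CDH1 and KRT19 were lower in KO (log2 fold changes -6.21, -4.72 and -4.23, edgeR adjusted p = 2.4e-21, 6.7e-25 and 2.2e-06), as was the lung lineage gene NAPSA (-3.40, edgeR adjusted p = 2.5e-11). The 10 leukocyte markers summed to 34.8 and 35.2 CPM in H1944 WT and 61.3 and 58.8 CPM in KO, most of it CD68, a lysosomal protein of macrophages that other cells also make. The part of these shifts in the interferon-stimulated genes was not tested.

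In H1944, nearly the whole set was higher in KO cells. All 40 genes could be tested, and 38 rose, 1 fell (IFITM2) and 1 was not called (ISG20) at an edgeR adjusted p under 0.05. MX2 and RTP4 had under 10 counts in each WT library and passed the filter on low counts only through KO. Only a rise could be called for them, and both are part of the 38 and of the 28 at least 2-fold higher. Among all 16626 genes tested, 33.2% were called higher and 33.9% lower, so a call alone is common in this line. At least 2-fold rises were found for 28 of the 40, against 10.1% of all genes; of all genes 11.3% were at least 2-fold lower. The median log2 fold change was 1.95, against -0.0065 for all genes. Both KO libraries lay above both WT libraries for 39 genes and below for IFITM2. Among all 16626 genes tested, 6829 lay above and 6880 below in this way, so groups that do not overlap are also common in this line. Summed over the 40 genes, the level was 1363 and 1372 CPM in WT and 4228 and 4218 CPM in KO. In bulk RNA, more RNA per cell and more cells with a high level cannot be told apart. Fitted together with the A549 libraries, whose spread is wider, 23 of the 40 were called in H1944, all higher, against 6.66% of all genes higher and 7.61% lower in that fit.

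**Figure D2:**
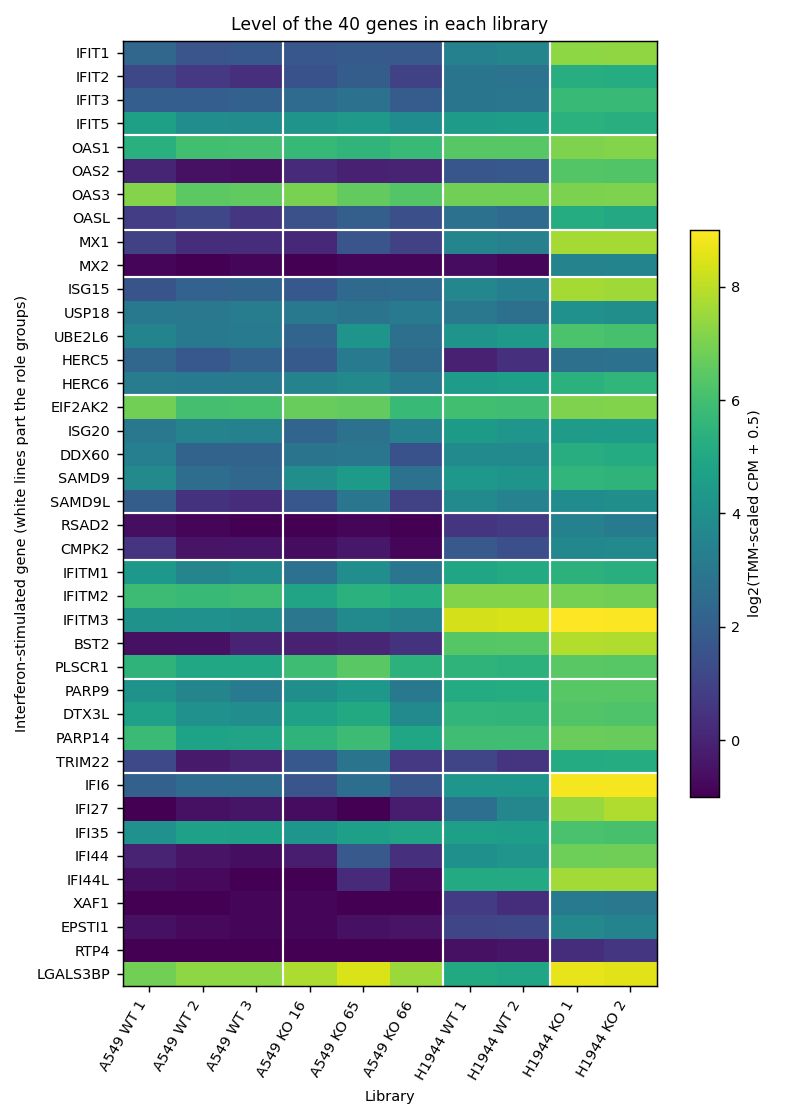
Level of each of the 40 genes (y axis) in each of the 10 libraries (x axis), as log2 of TMM-scaled CPM plus 0.5. The H1944 KO columns are the brightest for most genes, and several genes that are bright in H1944 are dark in all 6 A549 libraries.

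The IFIT proteins bind viral RNA that lacks the cap marks of the host, or hold back its translation, and all 4 rose in H1944 KO. IFIT1 measured 10.0 and 11.3 CPM in WT and 159 and 163 CPM in KO (log2 fold change 3.92 ± 0.059, SE, n = 2 libraries each here and in the values that follow). IFIT3 measured 7.0 and 7.02 CPM in WT and 53.5 and 53.4 CPM in KO (log2 fold change 2.93 ± 0.082). IFIT2 measured 6.91 and 6.55 CPM in WT and 37.5 and 35.9 CPM in KO (log2 fold change 2.44 ± 0.092). Replicate libraries lay close together in these 3 genes, and WT and KO did not overlap. IFIT5, which was already at 21.7 and 23 CPM in WT, changed least in the group, with a log2 fold change of 0.85 ± 0.071. Across the 4, edgeR adjusted p ran from 7.4e-23 to 7.5e-10. The IFIT genes lie within or beside LIPA in the annotation, and whether strand was used in counting is not given in the sources used here, so reads of overlapping genes may be mixed.

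The OAS family makes short oligoadenylates when it meets double-stranded RNA, and its 4 members rose by very different amounts. OAS2 measured 2.74 and 2.9 CPM in WT and 80.6 and 78.3 CPM in KO (log2 fold change 4.82 ± 0.089). OASL, a relative without synthetase activity that supports RNA sensing, measured 6.21 and 5.1 CPM in WT and 36.4 and 32.4 CPM in KO (log2 fold change 2.60 ± 0.11). The 2 members with the highest WT levels moved least. OAS1 measured 84.9 and 85.4 CPM in WT and 136 and 139.9 CPM in KO (0.69 ± 0.040), and OAS3 measured 118 and 118 CPM in WT and 132 and 135 CPM in KO (0.18 ± 0.039). In this family edgeR adjusted p ran from 2.2e-21 to 3.5e-04, the weakest being OAS3.

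The MX proteins are dynamin-like GTPases that trap viral nucleocapsids, and both genes rose in H1944 KO. MX1 measured 11.3 and 9.68 CPM in WT and 202 and 202 CPM in KO (log2 fold change 4.27 ± 0.057). MX2 was almost silent in WT, with 3 and 1 counts in WT and 308 and 330 in KO. It passed the filter on low counts only through KO. Its count ratio, scaled for library size, was 119 (95% exact binomial interval 46.4 to 439, counting error only), and its fitted log2 fold change of 6.82 ± 0.31 was the largest of the 40. The edgeR adjusted p was 1.0e-23 for MX1 and 1.6e-14 for MX2.

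ISG15 is a ubiquitin-like protein that is coupled to other proteins by the conjugating enzyme UBE2L6 and the ligase HERC5 and is removed by USP18, and all 5 genes of this group, HERC6 included, rose. ISG15 measured 12 and 9.45 CPM in WT and 201 and 189 CPM in KO (log2 fold change 4.17 ± 0.070). UBE2L6 measured 17.7 and 21.1 CPM in WT and 72.5 and 67.6 CPM in KO (log2 fold change 1.85 ± 0.072). HERC5 measured 0.435 and 0.795 CPM in WT and 5.91 and 6.28 CPM in KO (log2 fold change 3.31 ± 0.27). The modifier, its conjugating enzyme and its ligase were thus each higher in both KO libraries than in either WT library. USP18, the deconjugating protease that also damps the type I receptor, rose less, from 7.6 and 5.99 CPM in WT to 16.1 and 14.9 CPM in KO (log2 fold change 1.18 ± 0.13). HERC6, a paralog of HERC5, had a log2 fold change of 0.90 ± 0.077. For these 5 genes edgeR adjusted p ran from 1.3e-17 to 4.8e-08.

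Of the 5 genes that act on RNA or translation, 4 rose. EIF2AK2 encodes PKR, which stops translation when it binds double-stranded RNA, and measured 62.5 and 61.5 CPM in WT and 134 and 138 CPM in KO (log2 fold change 1.13 ± 0.042). DDX60, a helicase linked to RNA sensing, measured 13.5 and 12.8 CPM in WT and 36.7 and 35.7 CPM in KO (1.46 ± 0.081). SAMD9, a restriction factor of poxviruses, measured 19.5 and 17.7 CPM in WT and 48.2 and 45.6 CPM in KO (1.33 ± 0.073). Each of these 3 rose at least 2-fold, with no overlap between groups and an edgeR adjusted p of 6.4e-13 or less. SAMD9L, the neighbour and paralog of SAMD9, had a log2 fold change of 0.34 ± 0.12 (edgeR adjusted p = 0.0145), and its call was lost with DESeq2 (adjusted p = 0.0758), without WT 2 (edgeR, 0.201) and without KO 2 (edgeR, 0.0824). ISG20, an exonuclease that degrades RNA, measured 21.2 and 17.9 CPM in WT and 22.1 and 22.8 CPM in KO (0.20 ± 0.090, edgeR adjusted p = 0.0578); without WT 1 it passed (edgeR adjusted p = 0.00453), as it did with no filter on low counts (edgeR adjusted p = 0.0369).

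RSAD2 encodes viperin, which makes a chain-terminating nucleotide, and CMPK2, its neighbour in the genome, encodes a nucleotide kinase that supplies the substrate. RSAD2 measured 0.912 and 1.12 CPM in WT and 10.0 and 8.25 CPM in KO (log2 fold change 3.16 ± 0.21). CMPK2 measured 3.0 and 2.25 CPM in WT and 12.3 and 13 CPM in KO (log2 fold change 2.27 ± 0.16). Both rose from low levels (edgeR adjusted p = 1.8e-11 and 6.2e-11). Their annotations overlap by 751 bases, so part of the reads may belong to either.

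The membrane factors included the only gene that fell. BST2, or tetherin, which holds budding virus at the cell surface, measured 81.9 and 84.8 CPM in WT and 230.0 and 225 CPM in KO (log2 fold change 1.45 ± 0.039). IFITM3, which blocks virus fusion in endosomes and was the most abundant of the 40 genes in H1944 WT, measured 327 and 335 CPM in WT and 515 and 494 CPM in KO (0.61 ± 0.034). IFITM1, its relative at the cell surface, had a log2 fold change of 0.37 ± 0.076. IFITM2 went the other way, from 137 and 139 CPM in WT to 119.9 and 113 CPM in KO (-0.24 ± 0.040). PLSCR1, a phospholipid scramblase with antiviral activity, had a log2 fold change of 0.97 ± 0.050. In the membrane group edgeR adjusted p ran from 2.1e-18 to 2.2e-04. IFITM2 and IFITM3 are near-identical copies and IFITM1 is close to them, and how reads with several alignments were counted is not given in the sources used here, so the split between IFITM1, IFITM2 and IFITM3 is uncertain.

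The next group holds PARP9 and its partner DTX3L, a ubiquitin ligase pair that supports interferon signalling, with PARP14 and TRIM22, and all 4 rose. TRIM22, a ligase with antiviral activity, measured 1.65 and 0.936 CPM in WT and 34.7 and 36.4 CPM in KO (log2 fold change 4.76 ± 0.14). PARP9 measured 35 and 35.7 CPM in WT and 83.8 and 83.6 CPM in KO (1.24 ± 0.052). PARP14, a mono-ADP-ribosyltransferase, measured 61.2 and 60.1 CPM in WT and 105 and 103 CPM in KO (0.78 ± 0.044). TRIM22 was thus a low transcript that rose steeply, while the PARP genes rose from higher levels by less. DTX3L, which overlaps PARP9 by 447 bases and had the highest H1944 level of the group per length, measured 47.2 and 46.1 CPM in WT and 77.8 and 76.2 CPM in KO (0.72 ± 0.050). Here edgeR adjusted p ran from 1.7e-17 to 2.9e-11.

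Each of the remaining 9 genes rose at least 2-fold. IFI6, a membrane protein that limits flavivirus replication, measured 18.7 and 18.8 CPM in WT and 462 and 466 CPM in KO (log2 fold change 4.63 ± 0.045). LGALS3BP, a secreted glycoprotein that binds galectins, measured 33.4 and 29.2 CPM in WT and 394 and 379 CPM in KO (3.62 ± 0.050). These 2 were among the most abundant of the 40 transcripts in KO. IFI27 measured 5.87 and 12 CPM in WT and 174 and 226 CPM in KO (4.50 ± 0.41, edgeR adjusted p = 0.0102). Its replicates lay far apart within WT and within KO, and its call was lost without WT 1, WT 2 or KO 2 (edgeR adjusted p = 0.131, 0.118 and 0.117). IFI44L measured 34.4 and 34.3 CPM in WT and 197 and 197 CPM in KO (log2 fold change 2.52 ± 0.044). IFI44 measured 15.6 and 18 CPM in WT and 111 and 115 CPM in KO (log2 fold change 2.75 ± 0.061). IFI44 and IFI44L are neighbouring paralogs. IFI35, an interferon-induced cytoplasmic protein, measured 24.5 and 23.2 CPM in WT and 68.9 and 67.7 CPM in KO (1.52 ± 0.060). XAF1, which promotes apoptosis by opposing XIAP, measured 1.17 and 0.748 CPM in WT and 8.06 and 7.62 CPM in KO (3.01 ± 0.23). EPSTI1 measured 1.65 and 1.73 CPM in WT and 12.7 and 10.9 CPM in KO (log2 fold change 2.80 ± 0.18). Both of these were low transcripts in WT. RTP4, a chaperone of G protein-coupled receptors, measured 0.174 and 0.234 CPM in WT and 0.726 and 0.986 CPM in KO (2.05 ± 0.55). It passed the filter on low counts only through KO. Beside IFI27, edgeR adjusted p ran from 4.4e-26 to 0.00232 in this group.

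**Figure D3:**
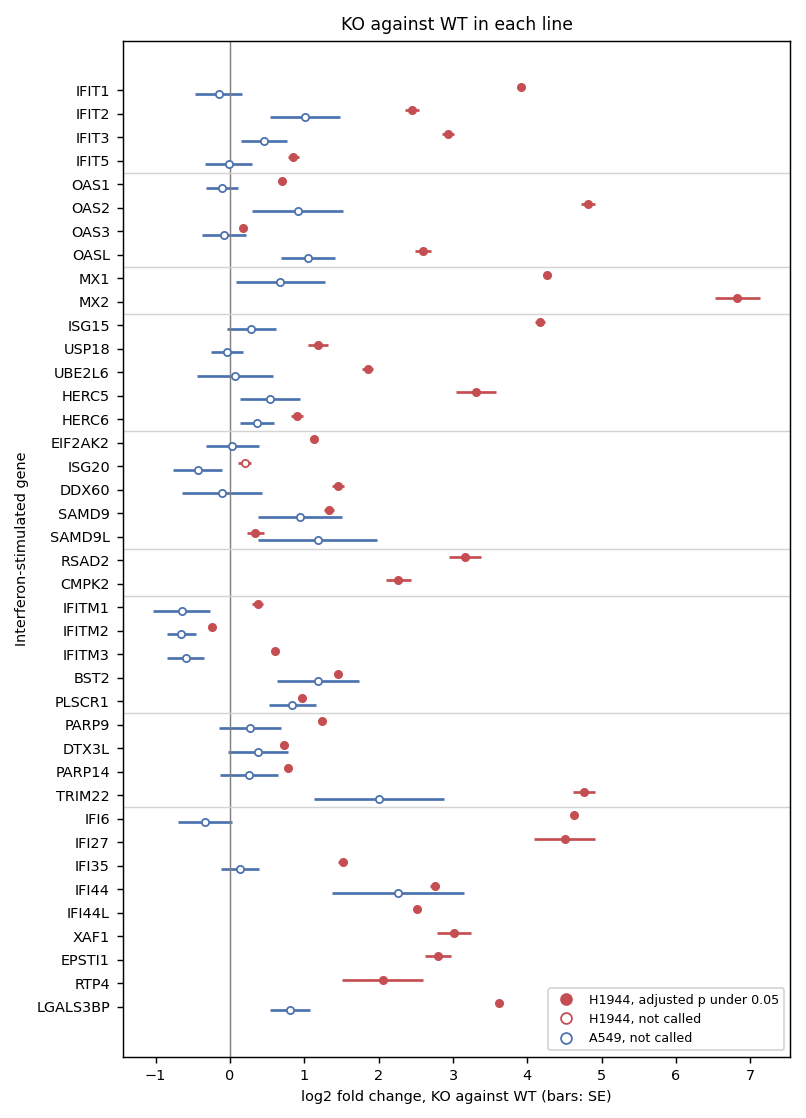
KO against WT log2 fold change (x axis, bars are the SE) of each of the 40 genes (y axis, in role groups) in H1944 (red) and of the 32 genes tested in A549 (blue). Filled points have an edgeR adjusted p under 0.05. In H1944, 39 points lie above 0 with short bars, whereas A549 points lie on both sides of 0 with longer bars.

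Levels can be compared between genes only per length, here as CPM per kilobase of annotated exon (GENCODE 29; the annotation of the count tables is not given in the sources used here). On that scale the highest of the 40 in H1944 WT were IFITM3 at 246 ± 4.22, IFITM2 at 89.4 ± 0.984 and BST2 at 74.5 ± 1.81 (mean ± SD, n = 2). In H1944 KO the highest were IFI6 at 536 ± 2.74, IFITM3 at 374 ± 11.1, ISG15 at 207 ± 8.93, BST2 at 203 ± 3.16 and LGALS3BP at 108 ± 2.92 (mean ± SD, n = 2). IFI6 thus stood above IFITM3 in KO, and ISG15 and BST2 were close together. In A549 WT the highest were LGALS3BP at 40.3 ± 7.01 and IFITM2 at 36.6 ± 1.15 (n = 3), which lay within 1 SD of each other.

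A list of 61 other genes of the pathway had 48 that could be tested in H1944. Of these, 24 were called higher and 11 lower by edgeR (all genes, 33.2% and 33.9%). At least 2-fold changes were found in 14 and 4, and the median log2 fold change was 0.12. Some low genes passed the filter through 1 group alone, such as GBP5 and CXCL11 through KO and AIM2 and IFNE through WT. The interferon genes other than IFNE were at or near 0. IFNA2, IFNW1 and IFNG had 0 counts in all 4 H1944 libraries, IFNA1 had 1 count and IFNK had 1 count. IFNB1 had 0 and 0 counts in WT and 2 and 2 in KO. The type III interferon IFNL1 had 0 and 0 counts in WT and 10 and 4 in KO, at least 1.76-fold higher against a limit of 3 counts per WT library. IFNL3 had 0 and 2 counts in WT and 7 and 16 in KO, a ratio of 8.6 (95% exact binomial interval 2.13 to 75.3), and IFNL2 had 0 and 0 counts in WT and 4 and 2 in KO. Apart from IFNE, type I and type III interferon transcripts were thus seen in the KO libraries as a few reads among 28950423 and 30219850 counts, too few for the test. IFNE, an epithelial type I interferon, had 40 and 17 counts in WT and 7 and 16 in KO and fell by 1.71 ± 0.49 on the log2 scale (edgeR adjusted p = 0.00395). Of the 6 receptor chains, 2 rose, a share near the 33.2% of all genes, IFNGR1 with a log2 fold change of 1.27 ± 0.036 and IFNAR2 with 0.25 ± 0.067 (edgeR adjusted p = 4.5e-18 and 0.00239).

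The transcription factors STAT2 and IRF9, which act together downstream of the receptors, both rose in H1944 KO. STAT2 measured 40.2 and 39.4 CPM in WT and 96.2 and 101 CPM in KO (log2 fold change 1.31 ± 0.050). IRF9 measured 23.6 and 24.8 CPM in WT and 48.4 and 48.5 CPM in KO (1.00 ± 0.065). For both, WT and KO libraries did not overlap, and edgeR adjusted p was 9.3e-16 and 1.1e-11. IRF7, which drives interferon genes and is itself interferon-induced, rose (1.73 ± 0.22), and IRF5 fell (-1.44 ± 0.31; edgeR adjusted p = 5.6e-07 and 2.9e-04). The RNA sensors RIG-I (listed as DDX58), MDA5 (IFIH1) and LGP2 (DHX58), themselves interferon-induced, had log2 fold changes of 2.53 ± 0.064, 1.26 ± 0.074 and 2.66 ± 0.15, and the DNA sensor IFI16 had 1.31 ± 0.045 (edgeR adjusted p at most 2.0e-12 for these 4). AIM2, an inflammasome DNA sensor at low counts, fell (-3.38 ± 0.72, edgeR adjusted p = 3.1e-04). The adaptors MAVS and STING1 and the kinase TBK1 had log2 fold changes of 0.026, 0.14 and 0.014 and were not called. In this group of sensors and adaptors 12 genes were tested, with 5 called higher and 3 lower (all genes, 33.2% and 33.9%). Among them, CGAS rose by 0.34 on the log2 scale, and TLR3 and IKBKE fell by 0.40 and 0.36 (edgeR adjusted p = 0.00289, 0.0279 and 0.00517).

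In a group of 10 negative regulators and nucleases, 3 were called higher and 4 lower by edgeR (all genes, 33.2% and 33.9%). SOCS1, which inhibits JAK kinases, rose (1.34 ± 0.49, edgeR adjusted p = 0.0207) at low counts, 9 and 6 in WT and 29 and 22 in KO. SOCS3 was not called (-0.093 ± 0.050), and PIAS1 fell (-0.40 ± 0.072, edgeR adjusted p = 5.0e-05). Of the genes best known from the response to interferon gamma, GBP1 and GBP4, both guanylate-binding GTPases, had log2 fold changes of 1.54 ± 0.092 and 2.75 ± 0.42 (edgeR adjusted p = 2.2e-12 and 7.6e-06). GBP5 had 1 and 0 counts in WT and 17 and 16 in KO, a ratio of 24.7 (95% exact binomial interval 4.13 to 1004). The chemokine gene CXCL11 had 0 and 0 counts in WT and 22 and 25 in KO, at least 5.85-fold higher against a limit of 3 counts per WT library. GBP2, in contrast, had a log2 fold change of 0.0082 ± 0.097 (edgeR adjusted p = 0.947).

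**Figure D4:**
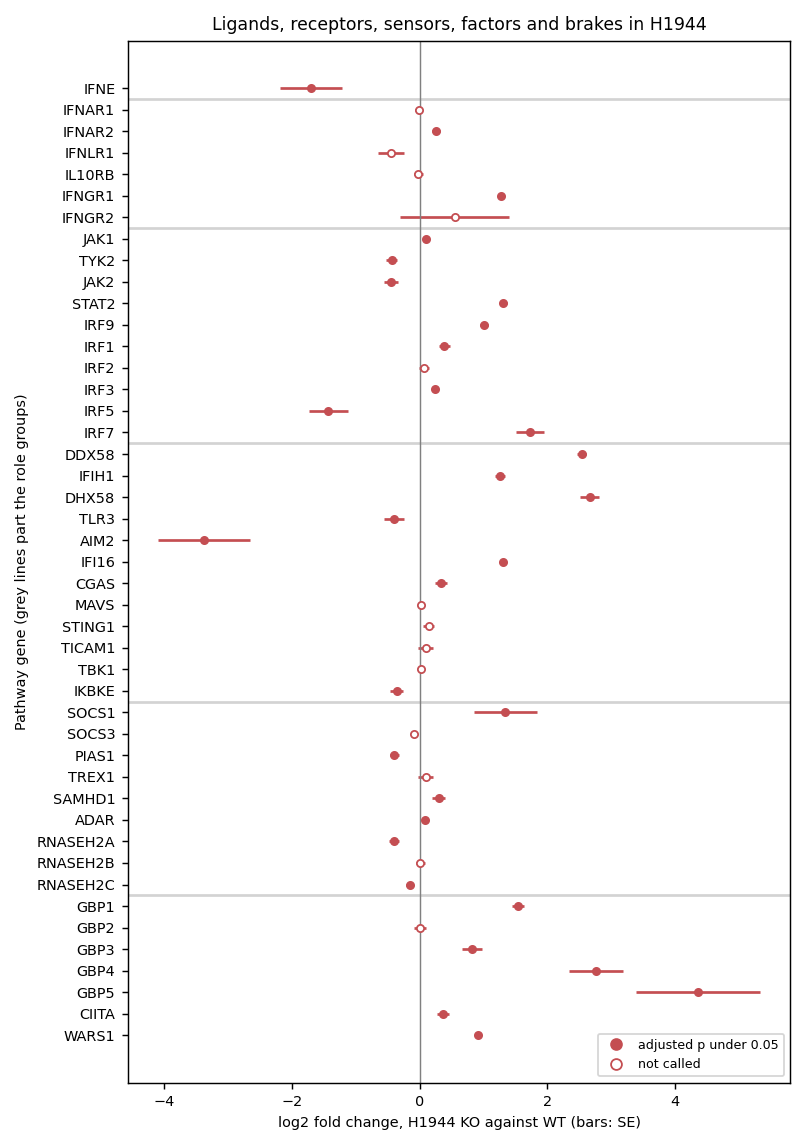
KO against WT log2 fold change in H1944 (x axis, bars are the SE) of tested pathway genes outside the 40 (y axis), in role groups from ligands and receptors to interferon-gamma induced genes. Filled points have an edgeR adjusted p under 0.05. STAT2, IRF9 and the RNA sensors RIG-I (DDX58), MDA5 (IFIH1) and LGP2 (DHX58) lie right of 0, and TLR3 lies left of 0. Most receptor chains and adaptors lie near 0. CXCL11, at 0 counts in WT, is not drawn.

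In A549 the same genes showed no change that passed the test. Of the 40, 32 could be tested, and 0 were called by edgeR, by DESeq2 or by limma-voom, with 6, 7 and 5 genes at an unadjusted p under 0.05; among all 15806 genes 0.00633% were called by edgeR, and 5.66% had an unadjusted p under 0.05. The median log2 fold change was 0.28, with 21 genes above 0 and 11 below, against a median of 0.018 for all genes. This median moved with single libraries, to 0.086 without KO 65 and 0.49 without KO 66. The number of genes at an unadjusted edgeR p under 0.05 moved too. It was 11 with the ribosomal RNA set as a covariate, 10 without KO 66 and 3 without WT 2 or without WT 3. The share of all genes in these settings is not given here. APEX1 itself was not called in A549 (edgeR adjusted p = 0.521), so a lack of calls does not show a lack of change. Summed over the 40 genes, the level was 781, 652 and 659.6 CPM in WT 1, 2 and 3 and 1025, 800.1 and 628 CPM in KO 65, 16 and 66, so the groups overlapped. RTP4 had 0 counts in all 6 libraries, and MX2, RSAD2, CMPK2, IFI27, IFI44L, XAF1 and EPSTI1 were too low to be tested.

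WT and KO libraries of A549 did not overlap in 4 of the 32 genes, 2 with KO above and 2 with KO below, where 5.64% and 4.98% of all genes tested were above and below. OASL measured 1.24, 1.69 and 0.989 CPM in WT 1, 2 and 3 and 3.54, 2.29 and 2.2 CPM in KO 65, 16 and 66 (log2 fold change 1.05 ± 0.36, SE, edgeR adjusted p = 0.795). LGALS3BP measured 116, 159 and 159 CPM in WT 1, 2 and 3 and 343, 217 and 183 CPM in KO 65, 16 and 66 (log2 fold change 0.80 ± 0.27, SE, edgeR adjusted p = 0.795). Both genes were also higher in H1944 KO. IFITM2 measured 57.8, 54.4 and 57.1 CPM in WT 1, 2 and 3 and 42, 28.3 and 35.8 CPM in KO 65, 16 and 66 (log2 fold change -0.65 ± 0.19, SE, edgeR adjusted p = 0.715). IFITM3 measured 16.6, 16.1 and 14.8 CPM in WT 1, 2 and 3 and 12.9, 7.42 and 10.7 CPM in KO 65, 16 and 66 (log2 fold change -0.60 ± 0.25, SE, edgeR adjusted p = 0.865). IFITM2 was thus lower in KO in both lines by its libraries, and IFITM3 lower in A549 and higher in H1944, within the uncertainty between these copies named above. Within the sets that share a ribosomal RNA share (KO 65 against WT 1; KO 16 and KO 66 against the mean of WT 2 and WT 3, with 0.5 CPM added), the log2 differences of KO 65, 16 and 66 were 1.21, 0.63 and 0.58 for OASL, 1.57, 0.45 and 0.20 for LGALS3BP, -0.46, -0.96 and -0.63 for IFITM2 and -0.35, -1.01 and -0.51 for IFITM3. The directions are fixed by the choice of genes whose groups do not overlap, so only the sizes are of use here, and LGALS3BP differed most in KO 65. PLSCR1 and IFI44 were named after their values were seen, as the other 2 genes with an unadjusted p under 0.05. PLSCR1 measured 45.2, 31.3 and 30.7 CPM in WT 1, 2 and 3 and 87.2, 59.5 and 42.9 CPM in KO 65, 16 and 66 (log2 fold change 0.84 ± 0.31, SE, edgeR adjusted p = 0.835). IFI44 measured 0.478, 0.229 and 0.141 CPM in WT 1, 2 and 3 and 3.0, 0.366 and 0.764 CPM in KO 65, 16 and 66 (log2 fold change 2.26 ± 0.89, SE, edgeR adjusted p = 0.848). KO 65 was the highest library in both.

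**Figure D5:**
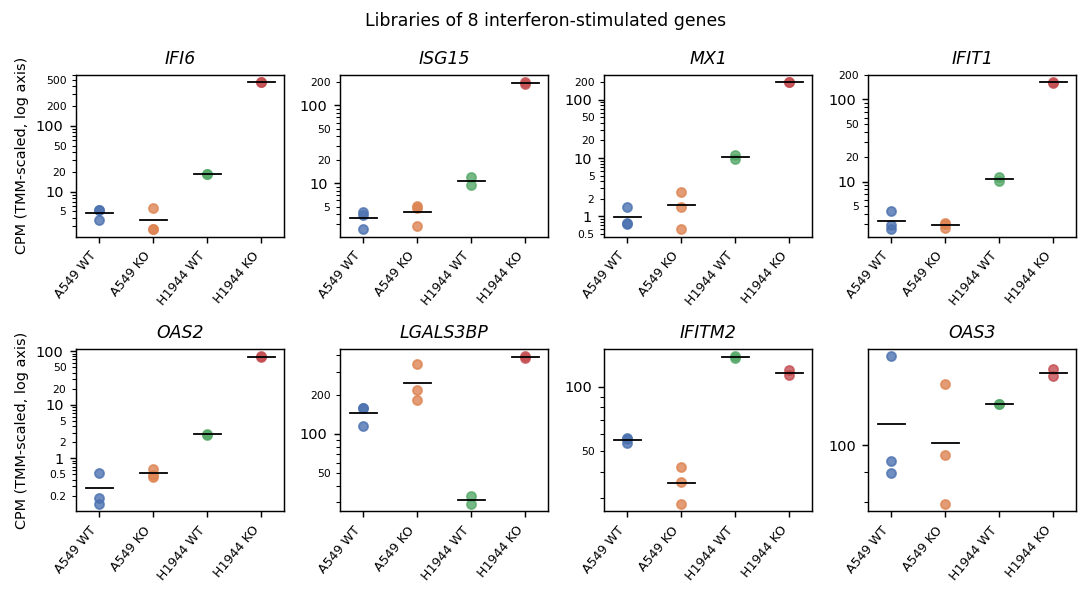
TMM-scaled CPM (y axis, logarithmic, with its own range in each panel) of 8 genes in every library (points), by group; black lines are group means. H1944 KO lies above H1944 WT in each panel except IFITM2, and the A549 groups overlap except in LGALS3BP and IFITM2.

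Whether the change with KO differed between the lines was tested as the A549 change minus the H1944 change, in 1 fit of all 10 libraries. The change was lower in A549 for 13 of the 40 genes at an edgeR adjusted p under 0.05, against 6.95% of 17677 genes that differed in either direction and 2.85% that were lower in A549. The 40 hold 8 genes that were too low to be tested within A549 and entered only through their H1944 counts. Of the 32 tested within both lines, 11 were lower in A549, against 3.11% of 14985 genes tested within both, and the median log2 difference was -1.17, against -0.018 for those genes. The smallest p-values were those of IFIT1 (log2 difference -4.08 ± 0.32), IFI6 (-4.99 ± 0.47), ISG15 (-3.92 ± 0.42), LGALS3BP (-2.85 ± 0.39) and IFIT3 (-2.50 ± 0.36), with edgeR adjusted p of 4.0e-04, 6.3e-04, 0.00116, 0.00317 and 0.00418. In A549, for example, IFIT1 measured 4.4, 2.61 and 2.92 CPM in WT 1, 2 and 3 and 3.09, 2.75 and 3.01 CPM in KO 65, 16 and 66, so the A549 groups overlapped, while it rose in H1944. The count of 13 was 6 without any 1 of the 4 H1944 libraries, 8 without A549 WT 3, and 22 with the ribosomal RNA set as a covariate. The share of all genes lower in A549 moved with it, to 0.727% to 0.879%, 1.53% and 7.01% in the same order. Line, count table and growth medium differ together between A549 and H1944 and cannot be told apart.

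The WT groups of the lines also differed. Between the WT groups, 26 of the 40 genes were lower in A549 than in H1944, 2 were higher and 12 were not called, against 22.2% lower and 21.2% higher of all genes tested by edgeR. Of the 32 genes tested within both lines, 19 were lower in A549 and 2 higher, against 19.4% lower of all genes tested within both. By fitted value the largest differences were those of IFI44L, BST2, IFI27, IFI44 and XAF1, an order that rests on few A549 counts. IFI44L, IFI27 and XAF1 were too low to be tested within A549 and entered this fit only through their H1944 counts. Only a lower level in A549 could be called for them, and they are part of the 26. BST2 and IFI44 had A549 minus H1944 log2 differences of -8.18 ± 0.37 and -5.87 ± 0.77 (edgeR adjusted p = 4.6e-06 and 4.8e-04). IFI44L had 5 counts in the A549 WT libraries in all and 1525 in H1944 WT, a scaled ratio of 439.5 (95% exact binomial interval 188 to 1356). IFI27 had 9 and 392 counts, a ratio of 62.8 (32.7 to 138). XAF1 had 1 count in A549 WT in all and 43 in H1944 WT, a scaled ratio of 62 (95% exact binomial interval 10.5 to 2504). BST2 was at 0.191, 0.183 and 0.471 CPM in A549 WT and 81.9 and 84.8 CPM in H1944 WT, and it stayed below 1 CPM in each A549 KO library. HERC5 and LGALS3BP went the other way, with log2 differences of 2.61 ± 0.49 and 2.21 ± 0.29 (edgeR adjusted p = 0.00297 and 5.0e-04). EIF2AK2, USP18 and IFI35 had log2 differences of 0.43 ± 0.32, 0.23 ± 0.20 and -0.11 ± 0.25 and were not called. Of the pathway genes, 43 could be tested in A549, and 1, IFI16, had an unadjusted p under 0.05 for KO against WT (log2 fold change 2.60 ± 0.73, edgeR adjusted p = 0.673).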

How the data were processed

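The authors deposited 1 table of raw counts per gene symbol for each line, with no normalization, and these counts are the unit used throughout. Per the submitters' processing notes, the tools were Trim Galore 0.5.0, HISAT2 2.1.0, featureCounts 1.6.4 and DESeq2, with genome build hg38; annotation, strand and the handling of reads with several alignments are not given in the sources used here. The counts of 5 listed copies of the 18S ribosomal RNA gene were identical in each library. Genes were kept by filterByExpr (minimum count 10), scaled by TMM and tested in R 4.3.3 with edgeR 4.0.16 (robust quasi-likelihood), KO against WT within each line, with Benjamini-Hochberg adjustment over all genes tested and a threshold of 0.05. The difference between lines and the WT lines were tested in 1 fit of all 10 libraries. Each SE is an approximation, the size of the log2 fold change divided by the root of its F statistic. Genes with few counts have a scaled count ratio with a 95% exact binomial interval, and a group at 0 a bound from 3 counts per library; both cover counting error only, as the labels name no molecular identifiers, without which reads are not independent molecules. Alternatives were DESeq2 size factors, no filter on low counts, DESeq2 1.42.0, voom in limma 3.58.1, the ribosomal RNA set as a covariate, the larger set only, 1 fit of all 10 libraries, a replicate block in H1944 and leaving out each library. Every pair of libraries within a group varied beyond sampling noise, and each library was counted as a sample. The chi-square per gene was 1.89 for WT 2 with WT 3 of A549, and 3.26 and 2.87 for the H1944 WT and KO pairs. For the other A549 pairs it ran from 126 to 256. These values do not show whether libraries stem from separate cultures. All members were accounted for; in H1944 each has a fold change, and values per library are given for those called at least 2-fold and for the highest mean CPM of each role group. In A549 the members named are those whose groups do not overlap, with a mean of at least 1 CPM; between lines they are the 5 smallest p, and between WT lines the 5 largest differences each way. Pathway genes are named if called at least 2-fold in H1944, with the ligands, STAT2 and IRF9 in any case, and a few that the rule names are not reported here; EPCAM, CDH1, KRT19, NAPSA, CD68, IFNAR2, MAVS, STING1, TBK1, GBP2 and, in A549, IFI16, PLSCR1 and IFI44 were named after their values were seen. The members and the lists were chosen with earlier results of these data known. Promoter windows came from RefSeq (GRCh38.p14).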

Additional observations from a re-analysis of the deposited data

Results flagged for a closer look

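For 13 of the 40 genes the KO against WT change differed between A549 and H1944 in the edgeR test of the difference itself (adjusted p under 0.05, A549 change minus H1944 change on the log2 scale). Of all 17677 genes tested, 6.95% differed in either direction and 2.85% were lower in A549. The 2 MX genes gave -6.87 for MX2 and -3.59 for MX1; MX2 and CMPK2 were too low for a test within A549 and entered only through their H1944 counts, so their fitted values rest on few A549 counts. IFI6 gave -4.99, IFI35 gave -1.41 and LGALS3BP gave -2.85. Of the IFIT genes, IFIT1 gave -4.08 and IFIT3 -2.50. In the ISG15 system, the modifier ISG15 gave -3.92, its ligase HERC5 -2.77 and its protease USP18 -1.26. OAS2 gave -3.92, CMPK2 gave -3.83 and IFITM3 gave -1.22. For each of the 13 the change was lower in A549. IFITM3 had opposite directions in the lines, below 0 in A549, where it was not called, and above 0 in H1944.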

How the results depend on the processing

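In 1 fit of all 10 libraries, 23 of the 40 genes were called in H1944, 23 higher and 0 lower, in place of 38 and 1; the spread is then estimated with the A549 libraries included. Of 400 alternative values of single genes in H1944, 375 kept their call, 22 lost it, 16 of them in that fit and the others for IFI27 and SAMD9L, and 3 gained it, all for ISG20. With 1 H1944 library left out, the median log2 fold change of the 40 genes ran from 1.79 (without WT 1) to 2.03 (without KO 1). In these fits the lone library left in a group was assumed to vary like the other group. In A549 the count was 0 without each library in turn. The count for the difference between lines was 22 with the ribosomal RNA set as a covariate, and 6 to 15 with 1 library left out, with 6 without each H1944 library and 8 without A549 WT 3. Between WT lines, the count of genes called moved with the library left out, and so did the share of all genes. Without 1 A549 library, that share ran from 17.1% (without WT 2) to 28.8% (without WT 1) lower in A549. The log2 difference of IFI35 ran from -0.24 to 0.063, reversed without A549 WT 1, and the cause was not tested. With a replicate block in H1944, 40 genes were called, 39 higher, against 33.5% of all genes higher and 34% lower. ISG20 then passed (edgeR adjusted p = 0.0444). The replicate numbers share no more than a name (correlation of deviations 0.0244 across 16626 genes, which are not independent replicates). In A549 alone, no pairing by number could be made, as the column numbers of the KO libraries do not match those of the WT libraries. Low counts limit the ligands and the 8 genes not tested in A549.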
